A study of Mus musculus with 12 samples.

Results

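The 3 genes C1qa, C1qb and C1qc encode the chains of complement C1q and were followed over 12 Affymetrix MG-U74v2 set A arrays of mouse hippocampus. They were chosen by name, as all probe sets annotated with 1 of these symbols, and make up 3 of the 8251 genes that the array annotation names with a single symbol. They are read by 4 of 12422 probe sets, which are 98562_at for C1qa, 96020_at and 162276_i_at for C1qb and 92223_at for C1qc, and all 4 passed the filter on dim probe sets. The choice was made with earlier results of these data known, so the levels and differences of the C1q genes below are a description and carry no test.

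The mice carried VP16-CREB (VC), CREB fused to a viral activation domain so that it is active at all times, which doxycycline (dox) keeps silent. Never-induced hippocampus consisted of wild type (2 arrays) and of VC mice kept on dox (1 array). Induced hippocampus came from VC mice 1 week (2 arrays), 2 weeks (2 arrays) and 5 weeks (1 array) after removal of dox. In the reversed sample (1 array) VP16-CREB was expressed for 3 weeks and then silenced with dox for 2 weeks. Its title calls it VC and its description calls it wild type. Microdissected CA1, a subfield of the hippocampus, came from wild-type mice (1 array) and from VC mice 3 weeks after removal of dox (2 arrays). Each hippocampal sample pooled 6 to 10 mice, so replicate arrays measure the spread between pools. Not given in the sources used here are the ages of the mice and the promoter that controls the transgene.

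C1q is the recognition molecule of the classical complement pathway. Its A, B and C chains assemble through collagen-like stalks into a bouquet of globular heads, which bind antibody, pentraxins, apoptotic cells and other surfaces and activate the proteases C1r and C1s. In the brain most C1q is made by microglia, the resident macrophages, and it is known for tagging synapses for removal during development and in disease.

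The 3 genes lie side by side on chromosome 4, in the order C1qb, C1qc, C1qa, with Ephb2 before and Epha8 after them in the RefSeq annotation of build GRCm38.p6. RefSeq promoter sequences were matched for 2 of the 3 genes, C1qb and C1qc. They are shown because the series switches on a CREB derivative, so that a reader may look for the classical CREB site in them. Each run is the 250 bases upstream of the gene's start on the minus strand, written 5′ to 3′. C1qb is at chr4:136886201-136886450 and C1qc at chr4:136892915-136893164. Capitals mark the matches described after the sequences.

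C1qb: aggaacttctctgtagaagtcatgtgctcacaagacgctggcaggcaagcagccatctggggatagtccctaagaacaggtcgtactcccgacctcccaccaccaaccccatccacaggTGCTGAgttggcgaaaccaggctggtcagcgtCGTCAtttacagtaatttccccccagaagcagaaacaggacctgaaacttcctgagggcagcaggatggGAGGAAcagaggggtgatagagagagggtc
C1qc: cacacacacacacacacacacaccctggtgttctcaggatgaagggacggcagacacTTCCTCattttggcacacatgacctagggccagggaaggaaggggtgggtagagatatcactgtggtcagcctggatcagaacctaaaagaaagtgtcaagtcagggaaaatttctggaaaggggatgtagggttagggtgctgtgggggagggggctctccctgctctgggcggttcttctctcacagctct

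Neither run holds the full cAMP response element TGACGTCA, the classical binding site of CREB, on either strand. Its shorter core TGACG occurs in C1qb on the opposite strand, printed as CGTCA, 99 to 95 bases upstream of the start, and not in C1qc. Of 32851 promoter windows of the same length, 1.55% hold the full element and 17.8% the core. The letters GAGGAA, a core bound by PU.1 and other ETS factors of myeloid cells, occur in both. In C1qb they lie 30 to 25 bases upstream, and in C1qc 193 to 188 bases upstream on the opposite strand, printed as TTCCTC. Of all windows, 23.3% hold these letters. TGCTGA, a core of Maf factor sites, occurs in C1qb 131 to 126 bases upstream and in 16.1% of all windows. Neither run holds the AP-1 letters TGANTCA (6.75% of windows). All 5 motifs were searched on both strands, and the full cAMP response element contains the core. A match is only a run of letters and shows no binding.

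Levels are log2 intensities on arrays brought to a common trimmed mean of 1000, and a level is not taken as an amount of RNA, so genes are not compared by it. Before the C1q values, the induction itself was visible on the arrays. Creb1, which encodes CREB, read 6.04 to 6.33 in never-induced hippocampus with the probe set dimmest there, where 6.04 is the floor set for dim values. The induced hippocampal arrays ran from 8.31 at 1 week to 9.63 at 2 weeks, and the reversed array gave 7.10. VC CA1 gave 8.86 and 9.56 against 6.04 for wild-type CA1. Pdyn, the dynorphin precursor gene and a known CREB target, was likewise read by the probe set dimmest in never-induced hippocampus. It gave 6.04 to 6.79 there and from 8.93 at 1 week to 11.13 at 2 weeks in induced hippocampus. The reversed array was at the floor of 6.04 with this Pdyn probe set. The brighter Pdyn probe set gave 9.45 on the reversed array, against a never-induced mean of 9.50. With these probe sets both genes were already above the never-induced arrays at 1 week, by at least 2.27 ± 0.25 (SE) for Creb1 and 2.82 ± 0.28 for Pdyn. The other probe set of each gene was above them by less, 1.02 ± 0.44 for Creb1 and 0.24 ± 0.15 for Pdyn. For each of these the adjusted p at 1 week was 0.969 (limma). Correlations of log2 values between arrays were 0.93 to 0.98 within hippocampus, 0.91 to 0.95 within CA1 and 0.83 to 0.92 between them.

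C1q was at its never-induced level after 1 week of VP16-CREB, higher at 2 weeks, and highest in hippocampus at 5 weeks. Averaged over the 3 chains, with the brightest probe set for each, C1q differed from its never-induced mean by -0.17 at 1 week, 0.78 at 2 weeks and 1.85 at 5 weeks on the log2 scale. The last 2 values are 1.72-fold and 3.6-fold higher intensities. After reversal the mean lay 0.28 above never-induced hippocampus (1.22-fold), and in CA1 it was 1.61 higher in VC than in wild-type mice (3.05-fold). The residual SD of this mean between arrays of the same group was 0.13 (5 degrees of freedom).

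C1qa encodes the A chain. Its level was 11.03 and 11.41 in wild-type hippocampus and 11.55 in VC hippocampus on dox. The 1-week arrays gave 11.41 and 11.26, the 2-week arrays 12.41 and 12.38, the 5-week array 13.47 and the reversed array 11.70. The 1-week arrays lay within the never-induced range, and the 2-week and 5-week arrays lay above all 5 of these. In rescaled intensity, C1qa was 2091 to 2997 on the never-induced arrays and 11368 at 5 weeks. Against the never-induced mean C1qa differed by 0.01 ± 0.19 (SE) at 1 week, by 1.07 ± 0.19 at 2 weeks and 2.14 ± 0.24 at 5 weeks. The rise at 5 weeks was 4.42-fold.

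C1qb encodes the B chain, and its brighter probe set was 96020_at. It read 10.75 and 11.17 in wild-type hippocampus and 11.16 in VC hippocampus on dox. The 1-week arrays gave 10.67 and 10.77, the 2-week arrays 11.25 and 11.51, the 5-week array 12.62 and the reversed array 11.24. The 1-week arrays overlapped the lowest wild-type array, and the lower of the 2-week arrays cleared the highest never-induced one by less than the spread among the never-induced arrays. Against the never-induced mean C1qb differed by -0.31 ± 0.18 (SE) at 1 week, by 0.36 ± 0.18 at 2 weeks and 1.60 ± 0.23 at 5 weeks, the last a 3.02-fold rise.

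C1qc encodes the C chain. Its level was 11.39 and 11.66 in wild-type hippocampus and 11.38 in VC hippocampus on dox. The 1-week arrays gave 11.27 and 11.28, the 2-week arrays 12.43 and 12.36, the 5-week array 13.28 and the reversed array 11.74. Both 1-week arrays were slightly below every never-induced array, while the 2-week arrays and the 5-week array were above all of them. Against the never-induced mean C1qc differed by -0.20 ± 0.15 (SE) at 1 week, by 0.92 ± 0.15 at 2 weeks and 1.80 ± 0.19 at 5 weeks, the last a 3.49-fold rise.

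**Figure D1:**
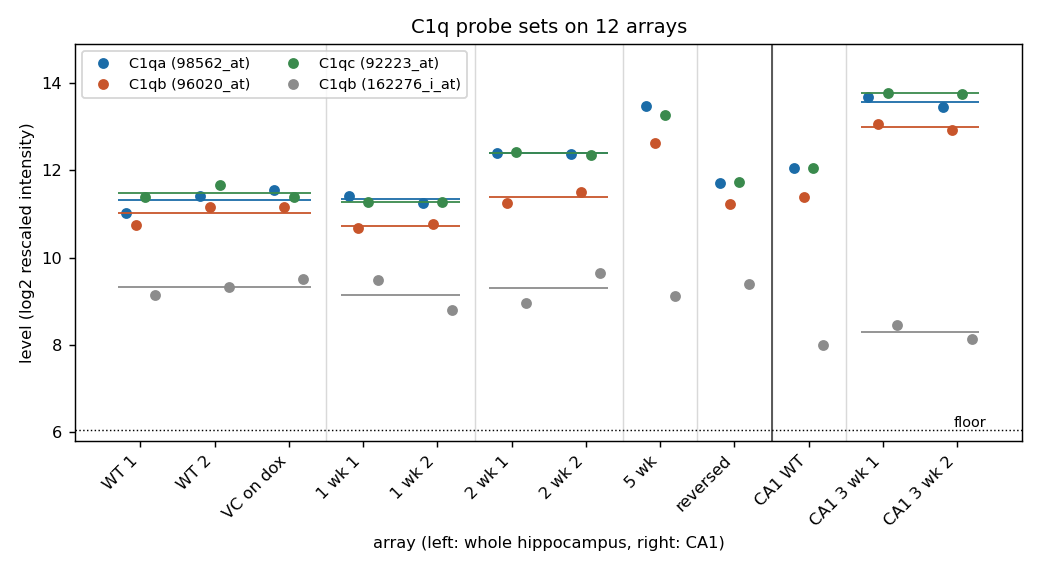
Level of each C1q probe set (log2 of rescaled intensity, vertical axis) on each of the 12 arrays (horizontal axis), with a line at the mean of each group of more than 1 array and a dotted line at the floor of 6.04. C1qa, C1qc and C1qb 96020_at are high at 2 weeks, at 5 weeks and in induced CA1, while C1qb 162276_i_at stays between 8.80 and 9.64 in hippocampus.

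The other C1qb probe set, 162276_i_at, did not move with the others. Wild-type hippocampus gave 9.14 and 9.33, VC hippocampus on dox 9.50, the 1-week arrays 9.48 and 8.80, the 2-week arrays 8.96 and 9.64, the 5-week array 9.11 and the reversed array 9.40. Its values at 1 and at 2 weeks fell on both sides of the never-induced mean, and the 5-week value lay just under the never-induced range. The difference at 5 weeks was -0.22 ± 0.34 (SE). Wild-type CA1 gave 7.99 and VC CA1 8.46 and 8.14, a difference of 0.32 ± 0.36. The suffix _i marks a probe set for which fewer unique probes than usual could be designed, and which transcript it reads was not examined. Over the 9 hippocampal arrays its correlation with C1qa, C1qb 96020_at and C1qc was -0.04, 0.01 and -0.09. Averaging all 4 probe sets lowers the C1q difference at 5 weeks to 1.33.

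By the test applied to all 7069 probe sets, 3 of the 4 C1q probe sets passed at 5 weeks against never-induced hippocampus, where 0.99% of all probe sets passed and 0.863% passed as higher and 0.127% as lower. None of the 4 passed at 1 week (0.0283% of all) or at 2 weeks (0.156%). At an unadjusted p under 0.05, 354 probe sets of all 7069 passed at 1 week and 315 at 2 weeks. The C1q genes were chosen with this contrast known, so nothing is read from these counts. Over all 7069 probe sets the median difference was -0.01 at 1 week, -0.01 at 2 weeks and -0.03 at 5 weeks.

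By 2 weeks the 3 chains had moved by different shares of the way to 5 weeks. Measured from the never-induced mean, which both times share, the level at 2 weeks had covered 0.50 of the distance to the 5-week level for C1qa, 0.51 for C1qc and 0.22 for C1qb. The C1qb value is uncertain, since its 2-week difference of 0.36 is 0.22 without wild-type array 1, and 0.23 and 0.48 on the single 2-week arrays. At 2 weeks the largest and smallest chain differences were 0.71 apart, and at 5 weeks 0.55 apart. In the comparison of CA1 they were 0.20 apart. Over 9 hippocampal arrays the log2 levels of the chains correlated at 0.93 (C1qa with C1qb), 0.97 (C1qa with C1qc) and 0.93 (C1qb with C1qc), with Spearman's rho of 0.85, 0.78 and 0.93. Without the 5-week array (8 arrays) the correlations were 0.80, 0.94 and 0.81. The probe sets share their RNA samples and arrays, and these correlations are a description.

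Between 1 and 2 weeks the mean of the 3 chains rose by 0.95, or 1.93-fold. The difference was 1.06 ± 0.20 (SE) for C1qa, 0.66 ± 0.20 for C1qb 96020_at and 1.12 ± 0.16 for C1qc. For each chain both 2-week arrays were above both 1-week arrays. No C1q probe set passed the test across all probe sets in this comparison, where 0% passed and 672 had an unadjusted p under 0.05.

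From 2 to 5 weeks the 3 chains rose by a further 1.07 on average, or 2.1-fold, with 1.24 ± 0.24 (SE) for C1qb 96020_at, 1.08 ± 0.25 for C1qa and 0.89 ± 0.20 for C1qc. None passed the test there (0.113% of all probe sets did, 0.0424% as higher and 0.0707% as lower). From 1 to 5 weeks the rise was 2.13 ± 0.25 for C1qa, 1.90 ± 0.24 for C1qb 96020_at and 2.01 ± 0.20 for C1qc, 4.04-fold for the mean. In that comparison 3 of the 4 C1q probe sets passed as higher beside 0.637% of all probe sets, 0.538% as higher and 0.099% as lower. Without 1-week array 1 the count was 0, and without 1-week array 2 it was 1. The 5-week time point is 1 array, which was taken to vary like the replicated groups.

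After reversal C1q was far below its 5-week level and near its never-induced level. The reversed array was 1.77 ± 0.29 (SE) below the 5-week array for C1qa, with levels of 11.70 and 13.47. For C1qb 96020_at the reversed minus 5-week difference was -1.38 ± 0.28, and for C1qc -1.54 ± 0.23. The mean of the chains was 0.338 times its 5-week value. Its distance above the never-induced mean was 0.17 of that of the 5-week array for C1qa, 0.13 for C1qb and 0.15 for C1qc. The reversed array was nevertheless above each of the 3 never-induced arrays for all 3 chains. The differences from the never-induced mean were 0.37 ± 0.24 for C1qa, 0.21 ± 0.23 for C1qb 96020_at and 0.27 ± 0.19 for C1qc, each less than 2 standard errors.

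Against 5 weeks, 1 of the 4 C1q probe sets (C1qc) passed the test as lower, where 0.255% of all probe sets passed, 0.184% as lower and 0.0707% as higher. That call is lost without any 1 of the 7 wild-type, on-dox, 1-week and 2-week hippocampal arrays, where the count is 0. Against never-induced hippocampus no C1q probe set and 0% of all probe sets passed, with 239 at an unadjusted p under 0.05. No sample taken at 3 weeks before reversal was included for hippocampus, so the level from which C1q came down is not known.

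In CA1, 3 weeks after removal of dox, the C1q difference from wild type was of the size seen at 5 weeks in whole hippocampus. Time, region and control samples differ between these comparisons. For C1qa the wild-type CA1 array gave 12.06 and the VC arrays 13.68 and 13.46. For C1qb 96020_at the wild type gave 11.38 and VC 13.06 and 12.93. For C1qc the wild type gave 12.05 and VC 13.77 and 13.76. Both VC arrays were above the wild-type array for each chain, by far more than they differed from each other. The differences were 1.51 ± 0.25 (SE) for C1qa, 1.61 ± 0.24 for C1qb and 1.71 ± 0.20 for C1qc, 2.85-fold, 3.05-fold and 3.28-fold. Of the 4 C1q probe sets 3 passed the test, beside 1.26% of all (1.13% as higher, 0.127% as lower), and without wild-type hippocampus array 2, which enters the pooled variance, 1 did. The wild-type CA1 group is 1 array.

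**Figure D2:**
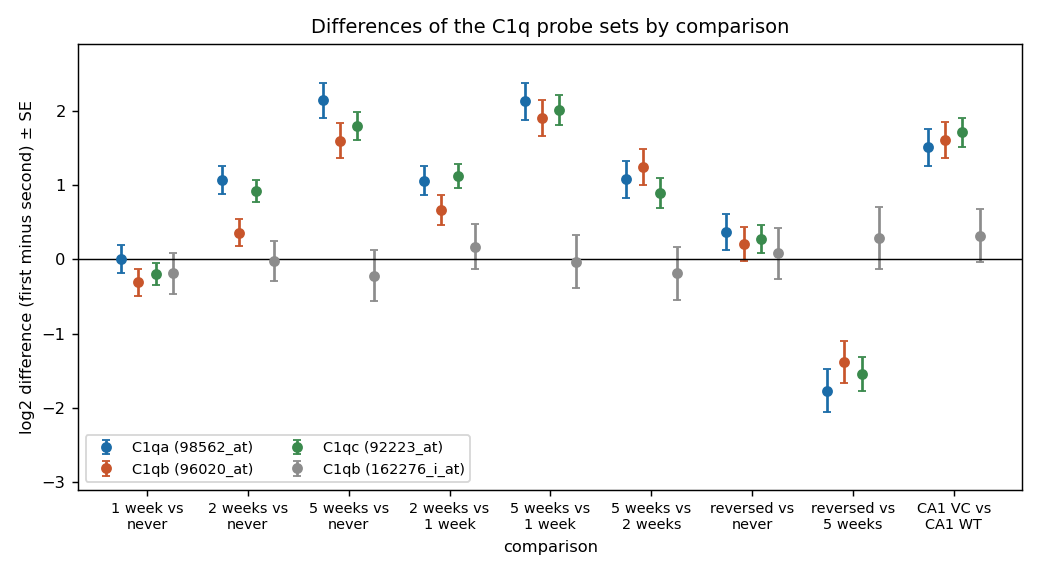
Log2 difference of each C1q probe set (vertical axis, first group minus the second, bars are ± SE from the fit over all groups) in the 9 comparisons (horizontal axis). The chains lie near 0 at 1 week, at 1.60 to 2.14 at 5 weeks and at 1.51 to 1.71 in CA1, and the grey C1qb probe set lies near 0 in each comparison.

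Wild-type CA1 read higher than never-induced whole hippocampus for the 3 chains, by 0.73 for C1qa, 0.36 for C1qb 96020_at and 0.57 for C1qc. For each chain it was above the highest never-induced array. Against wild-type hippocampus array 1, which shares the lower deposited scale of the CA1 arrays, the differences were 1.03, 0.64 and 0.66. The probe set 162276_i_at went the other way, with a difference of -1.34 from the never-induced mean. With 1 wild-type CA1 array, region and sample cannot be told apart.

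Ordered by the mean of the 3 chains relative to never-induced hippocampus, the groups ran from the 1-week arrays (-0.16 and -0.17) and the never-induced arrays (-0.22, 0.13 and 0.09) through the reversed array (0.28) and wild-type CA1 (0.56) to the 2-week arrays (0.76 and 0.80). The 5-week array (1.85) and VC CA1 (2.23 and 2.11) followed. The 1-week arrays lay within the never-induced range. From never-induced to reversed, to wild-type CA1 and to 2 weeks, each step was about 2 times the residual SD of 0.13, so the order of these neighbours is not firm. The gap between the 2-week arrays and the 5-week array was several times that SD.

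Of the complement genes downstream of or around C1q, few were measured above the filter and 1 passed a test. The list held 53 genes, of which 34 were on the array and 12 passed the filter. At 5 weeks 10 of the 12 were positive with a median of 0.27, against 46.3% positive and a median of -0.03 over all probe sets. A gene dim in never-induced hippocampus, as Itgb2 was, could pass the filter through arrays where it is high, so this count is a description. At 1 week the median was 0.10 and at 2 weeks 0.23. After reversal it was 0.17, and in CA1 0.15.

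Of the cascade components, 12 were on the array and only C1ra, the protease that C1q activates first, passed the filter. With its brighter probe set C1ra read 8.30 to 8.50 in never-induced hippocampus and 8.50 at 5 weeks. The difference was 0.10 ± 0.20 (SE; adjusted p = 0.997, limma). In CA1 C1ra was 0.46 ± 0.22 higher in VC mice, which did not pass (adjusted p = 0.489, limma). The other C1ra probe set varied more, from 6.42 to 8.65 in never-induced hippocampus, with 8.80 at 5 weeks, 8.90 for wild-type CA1, and 8.63 and 7.25 for the VC arrays of CA1. The summed intensity of the 12 components was 1829 to 2230 in never-induced hippocampus and 1690 at 5 weeks, so this sum did not rise with C1q. All its genes except C1ra lay under the filter, so the sum holds mostly dim signal and says little about the cascade. Masp1, a protease of the lectin pathway, was at the floor on every array. C3, C4a and C4b were not analysed here.

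Of the regulators, 11 were on the array and 6 passed the filter, 0 of which passed the limma test in any comparison. At an unadjusted p under 0.05, 1 of the 6 (Vtn) passed at 5 weeks against never-induced hippocampus, where 516 of all 7069 probe sets did. Vtn was already 0.60 ± 0.21 (SE) higher at 1 week, where C1q was at its never-induced level, and 0.35 ± 0.21 higher at 2 weeks. Serping1, the C1 inhibitor that dissociates C1r and C1s from C1q, read a mean of 9.08 in never-induced hippocampus and 9.68 at 5 weeks. The difference was 0.60 ± 0.31 (SE; adjusted p = 0.78, limma), and 0.76 ± 0.32 in CA1 (adjusted p = 0.44). Vtn (vitronectin) and Clu (clusterin) keep the terminal complex out of membranes. Their differences at 5 weeks were 0.81 ± 0.27 and 0.44 ± 0.20, and neither passed (adjusted p = 0.427 and 0.71). Cd59b, which blocks the membrane attack complex, had -0.61 ± 0.28 (adjusted p = 0.715), and Cr1l, the rodent regulator Crry, 0.72 ± 0.87 (adjusted p = 0.997). Cfi and Cd46 were at the floor on every array.

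Of the receptors, 11 were on the array and 5 passed the filter. Itgax, the alpha chain of complement receptor CR4, rose with C1q. Never-induced hippocampus gave 8.70 to 9.02, the 1-week arrays 8.85 and 8.43, the 2-week arrays 9.22 and 9.41, the 5-week array 10.36 and the reversed array 9.54. Its 5-week level was above every other hippocampal array, and the 1-week arrays overlapped the never-induced ones. Itgax was 2.9-fold higher at 5 weeks than in never-induced hippocampus (1.54 ± 0.23 SE; adjusted p = 0.017, limma) and 3.31-fold higher than at 1 week (1.73 ± 0.24; adjusted p = 0.0211).

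For Itgax wild-type CA1 gave 8.20 and VC CA1 9.76 and 9.83, 3.02-fold higher (1.59 ± 0.24 SE; adjusted p = 0.0204, limma). These calls do not hold in every setting. The count of complement genes other than C1q that passed falls from 1 to 0 at 5 weeks without wild-type hippocampus array 2, without the on-dox array, or with no filter on dim probe sets. In CA1 it falls to 0 without wild-type hippocampus array 2.

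Itgb2, the beta chain that pairs with Itgax and with Itgam, read 6.04 to 6.94 in never-induced hippocampus and 8.11 at 5 weeks, at least 2.87-fold (1.52 ± 0.36 SE). It did not pass (adjusted p = 0.158, limma), nor did it in CA1 (1.58 ± 0.38; adjusted p = 0.122). The highest levels of Itgb2 were on the VC CA1 arrays (8.74 and 8.78), through which it could pass the filter. C5ar1, the C5a receptor, had 0.06 ± 0.25 at 5 weeks, and Lrp1, an endocytic receptor that binds C1q, 0.01 ± 0.19. C3ar1, the C3a receptor, lay under the filter and read 6.57 to 7.94 over the 12 arrays. Of genes with a C1q-like globular domain 8 were on the array. Of these 3 passed the filter and 0 the limma test in any comparison, with 0 at an unadjusted p under 0.05 at 5 weeks and 1 (C1qtnf12) in CA1. Among all 7069 probe sets, 516 at 5 weeks and 779 in CA1 had such a p. For the 3 genes with a C1q-like domain only single values are given. Their differences at 5 weeks were 0.10 ± 0.22 for the synaptic organizer Cbln1, -0.15 ± 0.23 for C1qtnf1 and -0.53 ± 0.24 for C1qtnf12. C1ql1, under the filter and named after its values were seen, read 6.04 to 7.50 in never-induced hippocampus and 6.80 at 5 weeks, while wild-type CA1 gave 6.50 and the VC arrays of CA1 8.12 and 8.28.

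**Figure D3:**
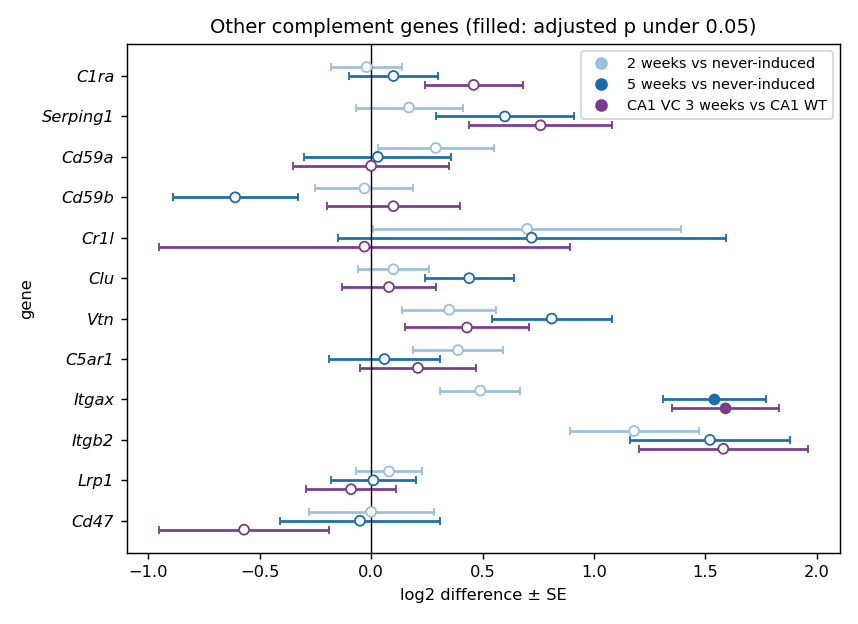
Log2 difference ± SE (horizontal axis) of the 12 complement genes other than C1q that passed the filter (vertical axis), at 2 weeks and 5 weeks against never-induced hippocampus and in CA1 against wild type. Only Itgax at 5 weeks (1.54) and in CA1 (1.59) has a filled point, which marks an adjusted p under 0.05, and Itgb2 has differences of the same size with an open point.

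The levels of C1q moved together with those of other genes of microglia and macrophages. In bulk tissue, more cells of a type and more RNA per cell cannot be told apart. Of 33 listed markers, none of them a C1q gene, 22 were on the array and 16 passed the filter. The filter asks for a level above the array's median on only 2 arrays, so markers dim in never-induced hippocampus could enter through induced arrays. Aif1, Lyz2, Cd53, Slc2a5 and Cd52 had never-induced means of 7.38, 7.45, 7.06, 6.87 and 8.04. The counts and medians of the 16 can therefore lean upward and are a description. At 5 weeks 7 of the 16 rose (Tyrobp, Ctss, Laptm5, Ly86, Cd52, Mpeg1 and Cyba) and 0 fell, beside 0.863% of all probe sets called higher, with 15 positive and a median of 1.51. At 2 weeks Cd52, a surface glycoprotein of leukocytes, rose (1.61 ± 0.17 SE; adjusted p = 0.0144, limma), beside 0.156% of all, with 15 positive and a median of 0.80. At 1 week 0 of the 16 passed in limma, adjusted or at an unadjusted p under 0.05, 9 were positive and the median was 0.02. In CA1 6 rose (Cd68, Ly86, Cd14, Cd52, Mpeg1 and Cyba), beside 1.13% of all called higher, with a median of 1.55.

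The summed intensity of the 22 markers was 15972 to 17616 in never-induced hippocampus and 16387 and 16559 at 1 week. The 2-week arrays gave 26185 and 29349, the 5-week array 46240 and the reversed array 23915. The sum at 5 weeks was 2.72 times the never-induced mean, and 1.41 times after reversal. In CA1 it was 20742 in wild type and 56976 and 55948 in VC mice, 2.75 and 2.7 times the wild-type value. The marker sum was thus high on the arrays on which C1q was high, and its part in the C1q result was not tested.

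C1q was set against the median of the 16 markers on the same array, both measured from never-induced hippocampus. The marker median rests on the same filter, which can raise it on arrays where markers are high. The C1q mean minus the marker median was 0.03 and -0.12 on the 2-week arrays and 0.34 on the 5-week array, -0.26 after reversal, and -0.30 to 0.13 on the never-induced arrays. The 5-week value was thus above the never-induced range and the 2-week values within it. Wild-type CA1 gave 0.30 and VC CA1 0.68 and 0.40. At 5 weeks 10 of the 16 markers had changed by less than C1q, and after reversal 2 of the 16. Measured from wild-type CA1 instead, C1q was higher by 1.67 and 1.55 on the VC arrays and the markers by a median of 1.53 and 1.70.

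**Figure D4:**
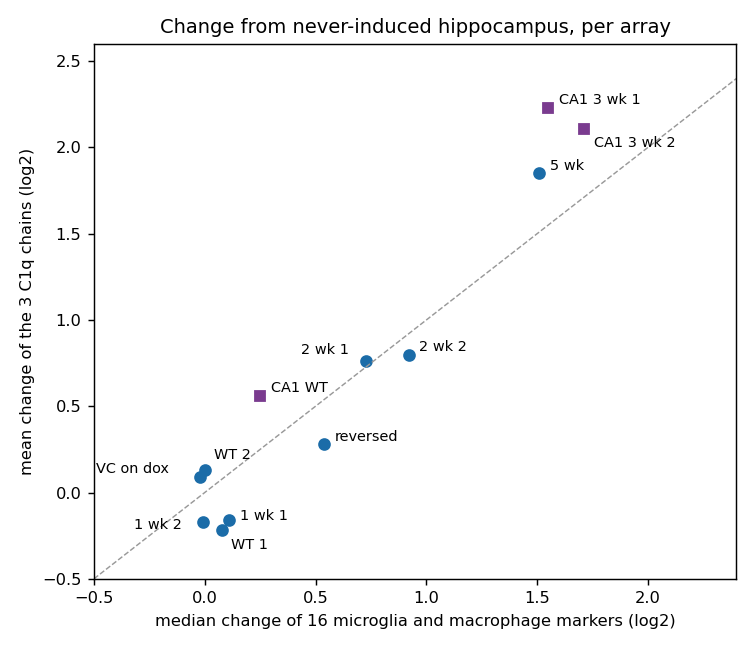
Mean change of the 3 C1q chains (vertical axis) against the median change of 16 microglia and macrophage markers (horizontal axis), both in log2 relative to the mean of never-induced hippocampus, for each of the 12 arrays (circles hippocampus, squares CA1). The dashed line marks equal change. The 2-week arrays lie near it, and the 5-week array, the wild-type CA1 array and both VC CA1 arrays lie above it.

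Among single markers, Ctss (cathepsin S, a lysosomal protease) rose by 1.60 ± 0.26 (SE) at 5 weeks (adjusted p = 0.0242, limma). Tyrobp, the signalling adaptor of Trem2 and other myeloid receptors, rose by 2.50 ± 0.38 (adjusted p = 0.0175), 5.65-fold. Laptm5, a lysosomal membrane protein, rose by 1.35 ± 0.19 (adjusted p = 0.0119) and Cyba, a subunit of the phagocyte oxidase, by 1.15 ± 0.19 (adjusted p = 0.0252). Csf1r, the receptor on which microglia depend for survival, had 0.85 ± 0.22 (adjusted p = 0.201), Aif1, which encodes Iba1, 2.12 ± 0.53 (adjusted p = 0.19), and Cd14, an endotoxin co-receptor, 0.46 ± 0.42 (adjusted p = 0.964). Cx3cr1, the fractalkine receptor of microglia, did not follow C1q in hippocampus. Its difference was -0.12 ± 0.19 at 2 weeks and -0.23 ± 0.24 at 5 weeks (adjusted p = 0.983), and 0.94 ± 0.25 in CA1 (adjusted p = 0.156).

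Of 9 listed transcription factors of myeloid cells, 8 were on the array and 7 passed the filter. Irf8, a factor that microglia require, rose 3.21-fold at 5 weeks (1.68 ± 0.25 SE; adjusted p = 0.0154, limma), with 0.76 ± 0.19 at 2 weeks (adjusted p = 0.425) and 1.18 ± 0.26 in CA1 (adjusted p = 0.0942). Spi1, which encodes PU.1, had 0.52 ± 0.30 at 5 weeks (adjusted p = 0.847) and 0.02 ± 0.32 in CA1. At 2 weeks Spi1 had -0.43 ± 0.24. The median of the 7 was 0.08 at 2 weeks, with 4 positive, and 0.39 at 5 weeks. Irf8 was the only 1 of the 7 to pass at 5 weeks, beside 0.863% of all probe sets called higher.

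Markers of other cells were read on the same arrays. Of 9 border macrophage and monocyte markers on the array, 2 passed the filter, with a median of -0.37 at 5 weeks, and the sum was 1513 to 1829 in never-induced hippocampus and 1392 at 5 weeks. The sum of 8 astrocyte markers was 1.39 and 1.13 times the never-induced mean at 2 weeks, 1.4 times at 5 weeks and 1.03 times after reversal. Of these 8 markers 1 passed as higher, Gfap, at 2 weeks (1.63), at 5 weeks (2.31) and in CA1 (1.69). In these comparisons 0.156%, 0.863% and 1.13% of all probe sets passed as higher. The median of the 8 astrocyte markers was 0.09, 0.54 and 0.05. Their sum in CA1 was 0.96 times the never-induced hippocampal mean in wild type, and 1.3 and 0.852 times in VC mice. The sum of 12 neuron markers at 5 weeks was 0.793 times the never-induced mean. The sum of 5 choroid plexus markers was 1955 to 4031 in never-induced hippocampus. The 1-week arrays gave 9325 and 10372, the 2-week arrays 917 and 5953, the 5-week array 7557 and the reversed array 1266. These sums were above the never-induced range on both 1-week arrays, 1 of the 2-week arrays and the 5-week array. The sum of 3 blood markers was 5443 to 7029 in never-induced hippocampus. The 1-week arrays gave 7265 and 15406, the 2-week arrays 10385 and 5383, the 5-week array 11262 and the reversed array 6365. No marker of these lists was at the floor on every array, and their part in the C1q result was not tested.

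The genes whose levels were most like C1q were found by correlation over the 9 hippocampal arrays, among 5432 genes whose median correlation was -0.02. The C1q profile used for this was the mean of all 4 C1q probe sets, each centred on its own mean. It thus includes 162276_i_at, which did not follow the chains. The 10 highest were Ctss (0.980), Scrg1 (0.973), Ly86 (0.964), H2-D1 (0.958), Tyrobp (0.957), Laptm5 (0.955), Man2b1 (0.955), Tspan4 (0.954), Ccl12 (0.947) and Dhrs1 (0.945). Of these, 4 were on the list of microglia and macrophage markers: Ctss, Ly86, Tyrobp and Laptm5. Without the 5-week array the 10 correlations were 0.85 to 0.96. Without the 2 arrays farthest from the median, a 2-week array and the 5-week array, they were 0.72 to 0.96. The 16 markers themselves had a median correlation of 0.88, from -0.52 for Cx3cr1 to 0.98 for Ctss.

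Scrg1 and Man2b1, a lysosomal mannosidase, followed the shape of C1q with smaller steps, of 0.86 and 0.70 at 5 weeks. Ccl12, a chemokine, had a step of 2.81 and H2-D1, an MHC class I heavy chain, one of 2.13. The Ccl12 differences at 1 week and after reversal were 0.00, as values at the floor give, so its step may be a lower bound. The H2-D1 probe set, of a kind marked _f for families, can also read related class I genes. The 5 most opposite genes were Gria2, an AMPA receptor subunit (-0.931), Glg1 (-0.922), Vps41 (-0.911), Gpd2 (-0.904) and Mfsd4a (-0.902). Without the 2 farthest arrays these 5 correlations were -0.49 (Vps41) to -0.88 (Gria2). Over all 12 arrays, CA1 included, they were -0.01 (Gpd2) to -0.88 (Mfsd4a). Their changes at 5 weeks were -0.35 to -0.71, smaller than those of C1q. All these genes share their arrays with C1q, and the correlations are a description.

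**Figure D5:**
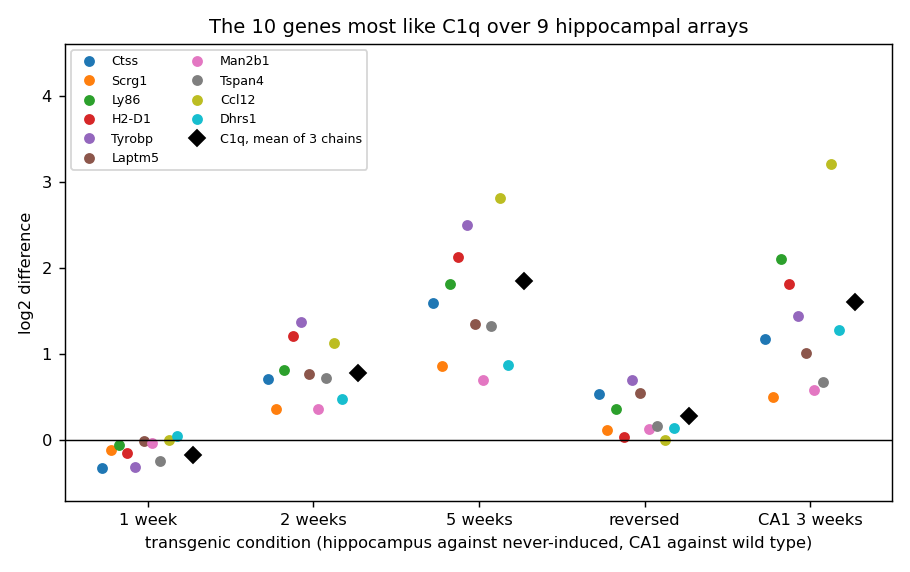
Log2 difference (vertical axis) of the 10 genes most like C1q and of the mean of the 3 C1q chains (black diamonds) in 5 VC conditions (horizontal axis), hippocampus against never-induced and CA1 against wild type. C1q goes from -0.17 at 1 week to 1.85 at 5 weeks and lies at 0.28 after reversal. The genes differ in the size of their step, from 0.70 for Man2b1 to 2.81 for Ccl12 at 5 weeks, the latter perhaps a lower bound.

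Of the neighbours of the C1q genes on chromosome 4, Epha8, a receptor tyrosine kinase gene next to C1qa, was the only one read on the array by a probe set of a single symbol. It was singled out by its position after the data had been seen. Its difference was 0.08 at 2 weeks, -0.10 at 5 weeks and 0.04 in CA1.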

How the data were processed

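RNA from 9 pooled hippocampal and 3 microdissected CA1 samples was measured on 1 array each. The deposited values are intensities on a linear scale made by the authors with GCOS, the Affymetrix array software, per the submitters' processing notes. Not given in the sources used here: its version, algorithm and scaling. The 2% trimmed mean was 500.3 or 500.4 on the CA1 arrays and wild-type hippocampus array 1, and 3002 on the other arrays.

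All arrays were brought to a trimmed mean of 1000. Values under the 20th percentile (65.7, or 6.04 on the log2 scale) were set to it before taking log2. Of 12488 probe sets 66 controls were left out, and 7069 of 12422 lay above their array's median on at least 2 arrays and were tested. Symbols came from the platform annotation, with 1 symbol for 10833 probe sets, several for 396 and none for 1193. A gene is read by its brightest probe set, except that Creb1 and Pdyn are shown with the probe set dimmest in never-induced hippocampus.

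A fit with 7 levels in limma 3.58.1 (R 4.3.3; residual df 5) gave differences, SE and two-sided p-values, adjusted by Benjamini-Hochberg over all 7069 probe sets with a threshold of 0.05. The script was tested on simulated data. Groups of 1 array borrow their error from the others, and precision is limited by how few arrays there are. With an array of the lower group at the floor, a fold is written "at least".

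The C1q genes, the gene lists and the rule for named genes were chosen with earlier results of these data known. Named were all C1q probe sets, complement genes past the threshold or with the largest difference at 5 weeks, the brightest or classical microglia markers, the 10 genes most and 5 least like C1q, and Creb1 and Pdyn. Promoters are RefSeq sequences of GRCm38.p6. Alternatives covered scaling, floor, filter, trend, deposited scale, single arrays left out and the replicate number as a block. Trem2 was not analysed here.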

Additional observations from a re-analysis of the deposited data

Results flagged for a closer look

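For C1qb (96020_at) and C1qc the difference from the mean of their controls was negative at 1 week and positive in later samples. The 1-week differences were -0.31 ± 0.18 (SE) and -0.20 ± 0.15, each less than 2 standard errors. For C1qb a 1-week array (10.77) lay above wild-type hippocampus array 1 (10.75). An effect at 1 week is therefore not shown. C1qb stood -0.31 from the never-induced mean after 1 week and 0.36 from it after 2 weeks, 0.66 apart, and in CA1 the difference from wild type was 1.61, which is 1.92 above the 1-week value. For C1qc the values were -0.20 at 1 week and 0.92 at 2 weeks, 1.12 apart, and 1.71 in CA1, 1.91 above the 1-week value. Both arrays at 1 week lay below the control mean and both arrays of the later group above it. These differences between effects were not tested, because the genes were chosen with the values known.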

How the results depend on the processing

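The direction of the mean C1q difference held in each of the 9 comparisons under all alternatives run for it. Scaling each array to its median gave -1.70 in place of -1.56 for reversed against 5 weeks. Averaging all 4 C1q probe sets, an alternative chosen after seeing the data, gave 0.58 at 2 weeks, 1.33 at 5 weeks, 0.75 for 2 weeks and 1.50 for 5 weeks against 1 week, 0.75 for 5 against 2 weeks, -1.10 for reversed against 5 weeks and 1.29 in CA1. The added probe set itself causes this, since its own differences are near 0.

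Leaving out single arrays gave C1q means of -0.28 to -0.10 at 1 week, 0.67 to 0.85 at 2 weeks, 1.74 to 1.91 at 5 weeks, 0.92 to 0.97 for 2 weeks and 2.01 to 2.02 for 5 weeks against 1 week, 1.04 to 1.09 for 5 against 2 weeks, 0.17 to 0.35 after reversal and 1.55 to 1.67 in CA1. The C1q count at 5 weeks was 3 under all 17 alternatives. The eBayes trend gave 2 C1q calls at 2 weeks and 2 for reversed against 5 weeks. For 2 weeks against 1 week the C1q count was 0 under 18 of 19 alternatives, 0 with each single array left out, and 1 at the highest.

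The count of other complement genes with no filter was 0 at 5 weeks, 0 for 5 weeks against 1 week and 2 in CA1 (Mbl2 and Itgax). With single arrays left out it was 0 to 1 in these 3 comparisons. It was 0 for 5 weeks against 1 week without the on-dox array or either 1-week array.

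Replicate numbers did not pair the arrays (correlations of deviations 0.04, 0.02 and -0.10). With the replicate block, the C1q mean was -0.12 at 1 week, 0.82 at 2 weeks and 0.95 for 2 weeks against 1 week. The 5-week, reversed and wild-type CA1 groups are single arrays and could not be left out, and the CA1 comparison cannot be made on the higher deposited scale.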
